A study of Homo sapiens with 16 samples.

Results

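The 10 genes described here are regulators of fat cell formation and genes that fat cells use to take up, store and signal about lipid. They are *PPARG*, *CEBPA*, *FABP4*, *LPL*, *PLIN1*, *PLIN2*, *CD36*, *ADIPOQ*, *LEP* and *PPARGC1A*. They were chosen by name, for their known roles, but when earlier results of these data were already known. They were found by their Ensembl identifiers, 10 of 60649 genes in the table. In all, 19103 genes had enough counts to be tested, among them 9 of the 10. *ADIPOQ* did not pass that filter and is given by its counts.

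Poly(A)-enriched RNA was sequenced in 16 libraries of ASC52telo, a line of human adipose-derived mesenchymal stem cells (MSCs) immortalized with telomerase. It is a single line, labelled wild type in genotype, and it was grown in α-MEM with fetal bovine serum, without any cocktail that induces fat cells according to the protocols read here. The 4 groups had 4 biological replicates each. "Young" MSCs (MmC-/GDF11-) received neither agent. Senescent MSCs (MmC+/GDF11-) were exposed to mitomycin C (MmC), a drug that alkylates DNA, at 1.5 µg/mL for 18 h. The groups MmC-/GDF11+ and MmC+/GDF11+ were "young" and senescent MSCs given recombinant growth differentiation factor 11 (GDF11), a cytokine of the TGF-β superfamily, at 10 ng/mL during the following 10 days. All groups were collected after those 10 days and carry the same sequencing run label. How the replicates were cultured and numbered was not stated, so the p-values measure the spread between these cultures of 1 line.

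Adipose MSCs can become fat cells. In textbook adipogenesis C/EBPβ and C/EBPδ act early and induce PPARγ (*PPARG*) and C/EBPα (*CEBPA*), which then induce each other and switch on the genes of lipid uptake, of the lipid droplet and of secreted adipokines. Free fatty acids are released outside the cell by lipoprotein lipase, enter with the help of CD36, are carried by FABP4 and are stored in droplets coated by perilipins. Perilipin 1 is the coat protein of fat cells, whereas perilipin 2 coats droplets in most cell types. The study concerns the effect of GDF11 on MSCs, and GDF11 is described as an inhibitor of fat cell formation, so the comparisons asked how these genes differed with MmC and with GDF11.

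The proximal promoters of *PLIN2*, *CEBPA* and *LEP*, which were higher after MmC in both comparisons, and of *PPARG* are shown. They were searched for short motifs, of which some belong to the factors named above. The sequences are RefSeq's, on GRCh38.p14, and hold the 250 bases before an annotated start, read 5′ to 3′ on the gene's strand. Capitals mark matches on either strand. TTGCGCAA is a palindrome bound by C/EBP factors. CACGTG is an E-box, bound by many helix-loop-helix factors. AGGTCA is the half-site of PPARγ and related receptors. TATAAA is the TATA box.
*PLIN2*, chr9:19127493-19127742, minus strand: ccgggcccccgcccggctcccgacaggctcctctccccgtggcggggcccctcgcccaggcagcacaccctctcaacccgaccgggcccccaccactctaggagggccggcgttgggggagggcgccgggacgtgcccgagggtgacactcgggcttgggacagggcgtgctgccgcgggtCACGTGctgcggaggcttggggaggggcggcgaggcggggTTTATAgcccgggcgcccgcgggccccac
*CEBPA*, chr19:33302535-33302784, minus strand: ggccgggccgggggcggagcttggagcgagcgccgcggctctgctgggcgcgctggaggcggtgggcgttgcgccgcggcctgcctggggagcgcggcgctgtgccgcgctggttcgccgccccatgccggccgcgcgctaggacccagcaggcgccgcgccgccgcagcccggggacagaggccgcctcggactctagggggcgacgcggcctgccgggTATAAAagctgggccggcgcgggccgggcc
*LEP*, chr7:128241028-128241277, plus strand: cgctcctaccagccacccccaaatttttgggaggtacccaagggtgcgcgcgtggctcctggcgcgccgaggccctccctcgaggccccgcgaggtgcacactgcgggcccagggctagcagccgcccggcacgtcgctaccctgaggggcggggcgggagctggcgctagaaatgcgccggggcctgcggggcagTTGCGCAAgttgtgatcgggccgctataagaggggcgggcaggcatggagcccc
*PPARG*, chr3:12287118-12287367, plus strand, an upstream start: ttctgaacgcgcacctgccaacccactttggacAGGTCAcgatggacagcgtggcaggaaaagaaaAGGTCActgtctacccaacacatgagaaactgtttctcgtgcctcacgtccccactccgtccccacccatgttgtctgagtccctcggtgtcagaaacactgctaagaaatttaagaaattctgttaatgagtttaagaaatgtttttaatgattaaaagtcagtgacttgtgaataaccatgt
*PPARG*, chr3:12351167-12351416, plus strand, a downstream start: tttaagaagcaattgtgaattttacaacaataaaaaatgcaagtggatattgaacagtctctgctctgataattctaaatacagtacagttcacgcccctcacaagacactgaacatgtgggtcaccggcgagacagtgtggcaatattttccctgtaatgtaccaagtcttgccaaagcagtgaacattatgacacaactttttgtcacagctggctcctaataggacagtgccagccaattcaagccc

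The window of *LEP* held TTGCGCAA with its first base at -54, counted from the annotated start. This palindrome was in 0.131% of the 35116 windows of the same length in the table. The window of *PLIN2* held CACGTG at -69, a motif found in 6.34% of all windows, and TATAAA on the opposite strand at -29. The window of *CEBPA* held TATAAA at -30, a motif found in 10.7% of windows. The upstream window of *PPARG* held AGGTCA at -217 and at -184, a motif found in 12.1% of windows, and its downstream window held none of the motifs. Of its windows not shown, chr3:12288810-12289059 held AGGTCA at -14 and TATAAA at -22. The overlapping window chr3:12288820-12289069 held them at -24 and -32. The direct repeat AGGTCANAGGTCA was in 0.0171% of windows and in none of the 19 windows of the 8 members with an entry. *FABP4* and *LPL* had no entry in the table. These matches describe letters in a window and say nothing of whether a factor was bound.

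Total counts per library lay between 71275337 and 144204979. The label of MmC was checked on *CDKN1A*, the p21 inhibitor of the cell cycle, and on *MKI67*, a gene of dividing cells. *CDKN1A* had 226 ± 70.6 CPM (counts scaled to the library total, mean ± SD, n = 4) in "young" MSCs and 1507 ± 395 CPM after MmC (a log2 difference of 2.74). *MKI67* fell from 115 ± 41.0 to 35.3 ± 13.4 CPM without GDF11 and from 114 ± 25.9 to 38.1 ± 16.7 CPM with it, so it was not absent after MmC. Markers of MSCs (*NT5E*, *THY1*, *ENG*, *CD44*) summed to between 2983 and 3711 CPM in every library, with *NT5E* higher after MmC in both comparisons, *CD44* called with GDF11, and *THY1* at 1113 ± 225 and 746 ± 289 CPM without GDF11 (log2 fold change -0.58, adjusted p = 0.101). Markers of mature fat cells (*ADIPOQ*, *PLIN1*, *CIDEC*, *LEP*) summed to between 0.0536 and 0.260 CPM in libraries without MmC and to between 0.366 and 1.50 CPM with MmC, and *ADIPOQ* was at 0 in all libraries of MmC-/GDF11-. All but *CIDEC* are members, so these sums repeat values given below. *LEP* alone had 1.30 and 1.07 CPM in replicate 1 of MmC+/GDF11- and of MmC+/GDF11+. Markers of macrophages and leukocytes (*PTPRC*, *CD14*, *CSF1R*, *CD68*) summed to between 2.09 and 3.24 CPM without MmC and to between 3.60 and 5.83 with MmC, where 2 of 4 (*CD14* and *CD68*) were higher without GDF11 and 3 of 4 with it (also *PTPRC*). Endothelial markers (*PECAM1*, *CDH5*, *VWF*) summed to between 7.82 and 11.2 CPM without MmC and to between 8.34 and 21.7 with MmC, with 2 higher (*PECAM1*, *VWF*) and 1 lower (*CDH5*) of 3 in both comparisons. The part of these cell types in the changes below was not tested. In such bulk RNA, fewer cells of a type and less RNA per cell cannot be told apart.

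All calls among these genes were for MmC. Without GDF11, 5 of the 9 tested members passed edgeR's quasi-likelihood test at an adjusted p under 0.05 in MmC+ against MmC-, beside 45.3% of all tested genes. *CEBPA*, *PLIN2* and *LEP* were higher, beside 22.9% of all genes, and *PPARG* and *FABP4* were lower, beside 22.4%. With GDF11, 6 of 9 passed, beside 46.7% of all genes. *PLIN1* joined the higher members, which were then 4, beside 23.4% of all genes, and the same 2 members were lower, beside 23.3%. *LEP* and *PLIN1* passed the filter on low counts only through libraries with MmC, so either could only be called higher. The 4 and 4 libraries did not overlap for 5 of the 9 members without GDF11 and for 6 with it, where 37.3% and 41.5% of all genes did not overlap. The median log2 fold change of the 9 members was 0.03 without GDF11 and 0.75 with it, and over all tested genes it was -0.01 in both comparisons. These counts lie near the shares of all genes and are no result about the members as a set. The pair of comparisons shares no library, but the fit shares 1 estimate of the spread.

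**Figure D1:**
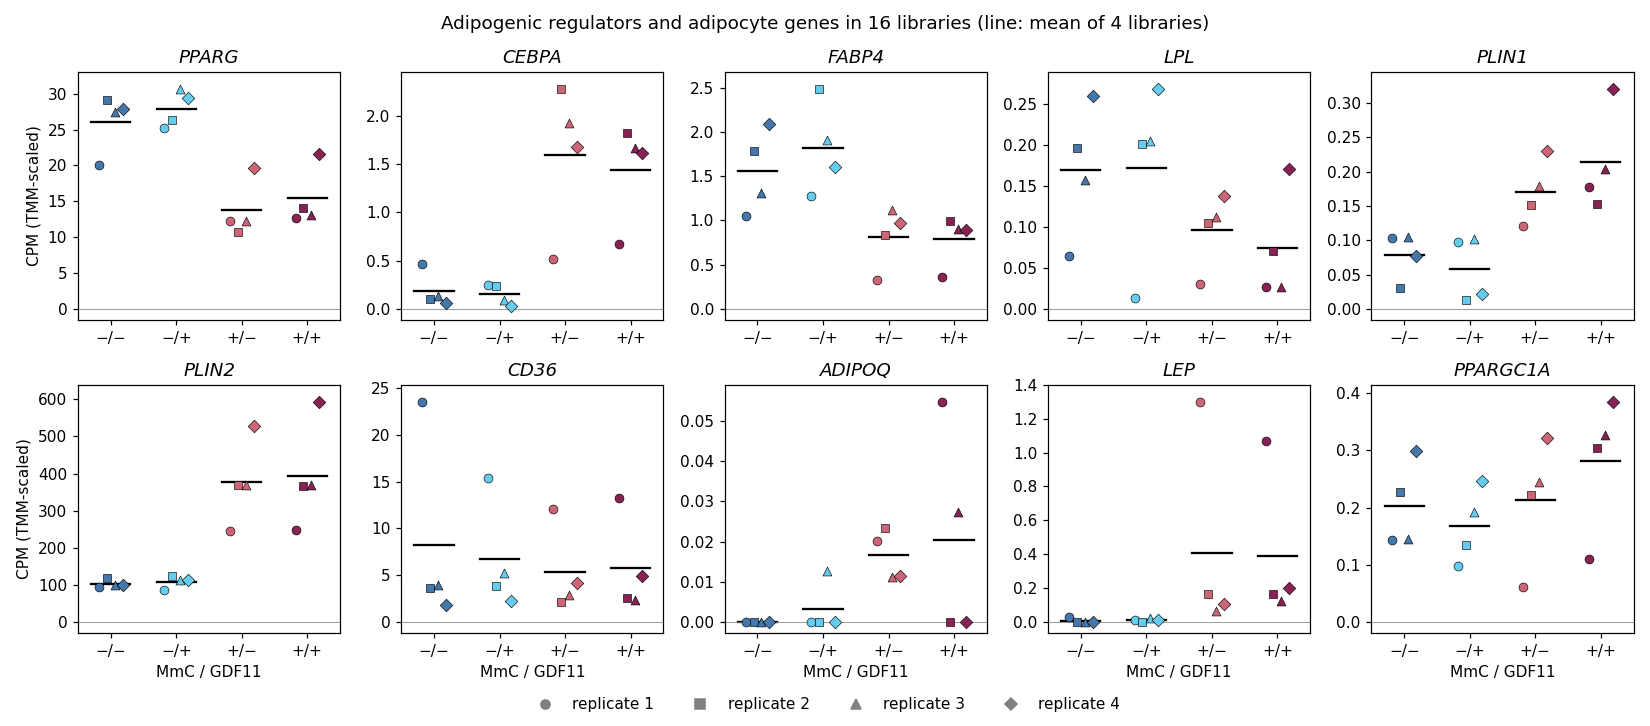
TMM-scaled CPM (y axis, linear, a separate scale for each gene) of the 10 genes in each library of the 4 groups (x axis, MmC then GDF11), with a line at the mean of 4 libraries and marker shapes for the replicate numbers. *PLIN2* lay between 85.6 and 122 CPM in libraries without MmC and between 245 and 592 with it, while replicate 1 of every group stood highest for *CD36*.

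*PPARG* (ENSG00000132170.24, hg38, chr3:12287368-12434356, plus strand) encodes the nuclear receptor that is required for fat cells to form. In MmC-/GDF11- the levels of replicates 1 to 4 were 20.01, 29.1, 27.5 and 27.8 CPM, against 12.3, 10.7, 12.2 and 19.7 in MmC+/GDF11-. With GDF11 it had 25.2, 26.3, 30.6 and 29.4 CPM in "young" MSCs and 12.7, 14.1, 13.1 and 21.6 in senescent MSCs. In both comparisons every library with MmC lay under every library without it, although replicate 4 with MmC came within 1 CPM of replicate 1 without it when GDF11 was absent. *PPARG* fell by 0.93 on the log2 scale without GDF11 (SE 0.196, 95% interval -1.34 to -0.51, adjusted p = 0.00124), to 0.526 times the level without MmC. With GDF11 it fell by 0.86 (SE 0.196, adjusted p = 0.00214). All same-numbered pairs went down, to between 0.369 and 0.708 of the partner without GDF11 and to between 0.429 and 0.735 with it. The counts are per gene, so transcripts from the upstream and downstream starts shown above were counted together.

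*CEBPA* (ENSG00000245848.3, chr19:33299934-33302534, minus strand) encodes the partner of PPARγ in late adipogenesis. It had 0.468, 0.104, 0.131 and 0.0578 CPM in MmC-/GDF11- and 0.517, 2.27, 1.92 and 1.68 in MmC+/GDF11-. With GDF11 the values were 0.250, 0.241, 0.0895 and 0.0335 CPM in "young" MSCs and 0.670, 1.82, 1.66 and 1.61 in senescent MSCs. The groups did not overlap, and replicate 1 was the lowest library of both groups with MmC and the highest of both groups without it. *CEBPA* was 8.61-fold higher after MmC without GDF11 (log2 fold change 3.11, SE 0.638, 95% interval 1.75 to 4.47, adjusted p = 0.00114) and 9.57-fold higher with GDF11 (3.26, SE 0.657, adjusted p = 0.000962). Without GDF11 the ratio within replicate numbers ran from 1.10 to 29.1, and leaving out replicate 1 of MmC-/GDF11- raised the log2 fold change to 4.06. The gene has a single exon, and 43.9% of it is overlapped by 2 antisense non-coding genes, which had at most 1 count in any library. The strand setting of the counting was not stated, and whether reads were lost to this overlap was not tested. *PPARG* and *CEBPA*, which induce each other in the textbook account, thus moved in opposite directions after MmC.

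*PPARGC1A* (ENSG00000109819.9, chr4:23755041-23904089, minus strand) encodes PGC-1α, a coactivator of PPARγ and of mitochondrial genes. It was low in all groups, at 0.143, 0.228, 0.144 and 0.299 CPM in MmC-/GDF11- and 0.0608, 0.221, 0.246 and 0.322 in MmC+/GDF11-. With GDF11 it had 0.0973, 0.134, 0.192 and 0.246 CPM in "young" MSCs and 0.109, 0.305, 0.327 and 0.384 in senescent MSCs. All groups overlapped. The log2 fold change after MmC was 0.03 without GDF11 (95% interval -0.93 to 0.99, adjusted p = 0.962) and 0.75 with GDF11 (-0.21 to 1.71, adjusted p = 0.186). In the presence of GDF11 all 4 same-numbered libraries were higher with MmC, by ratios of 1.12 to 2.27. The numbers were not taken as pairs in that comparison, and the blocked fit, which did call the gene, is given in the last section.

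*FABP4* (ENSG00000170323.9, chr8:81478419-81483236, minus strand) encodes the fatty acid carrier of fat cells and macrophages and is a target of PPARγ. It had 1.05, 1.78, 1.31 and 2.09 CPM in MmC-/GDF11- and 0.324, 0.839, 1.12 and 0.967 in MmC+/GDF11-. With GDF11 it had 1.28, 2.48, 1.90 and 1.61 CPM in "young" MSCs and 0.356, 0.997, 0.900 and 0.896 in senescent MSCs. The groups overlapped without GDF11 and did not with it, and replicate 1 was the lowest library of every group. *FABP4* fell by 0.95 on the log2 scale after MmC without GDF11 (SE 0.359, 95% interval -1.71 to -0.19, adjusted p = 0.0410) and by 1.20 with GDF11 (SE 0.359, adjusted p = 0.0124, 2.29-fold lower). The call without GDF11 depended on the libraries and the fit. It held in the blocked fit (adjusted p = 0.00100), where all 4 pairs were lower, and without replicate 1 of every group (-0.83, adjusted p = 0.00427). It was lost on leaving out replicate 2, 3 or 4 of MmC-/GDF11- (adjusted p = 0.0942, 0.0507 and 0.123) or replicate 1, 2 or 4 of MmC+/GDF11- (0.0949, 0.0732 and 0.0531), with the log2 fold change between -1.14 and -0.67 over the libraries left out. With GDF11 the call held for each of the 8 libraries left out.

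*LPL* (ENSG00000175445.17, chr8:19901717-19967259, plus strand) encodes lipoprotein lipase, which frees fatty acids from circulating triglycerides. Its counts were 5, 19, 12 and 27 in MmC-/GDF11- and 3, 9, 10 and 12 in MmC+/GDF11-, or 0.170 ± 0.0818 and 0.0963 ± 0.0462 CPM. With GDF11 the counts were 1, 15, 16 and 24 in "young" MSCs and 2, 7, 4 and 16 in senescent MSCs, or 0.172 ± 0.110 and 0.0741 ± 0.0676 CPM. The groups overlapped in both comparisons. Log2 fold changes after MmC were -0.85 without GDF11 (95% interval -2.23 to 0.52, adjusted p = 0.303) and -1.24 with it (-2.66 to 0.17, adjusted p = 0.140), and neither passed. With GDF11 the gene passed on leaving out replicate 1 of MmC-/GDF11+ (-1.60, adjusted p = 0.0361) or replicate 4 of MmC+/GDF11+ (-2.02, adjusted p = 0.0368). The blocked fit called it with GDF11 too (-1.30, adjusted p = 0.0109). *LPL* needed libraries without MmC to pass the filter on low counts, so in these fits it could only be called lower.

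*CD36* (ENSG00000135218.19, chr7:80369575-80679277, plus strand) encodes a fatty acid translocase that also binds modified lipoproteins. Its levels differed more between replicate numbers than between groups. It had 23.5, 3.63, 3.96 and 1.78 CPM in MmC-/GDF11- and 12.1, 2.12, 2.82 and 4.14 in MmC+/GDF11-. With GDF11 it had 15.4, 3.85, 5.21 and 2.27 CPM in "young" MSCs and 13.2, 2.55, 2.35 and 4.88 in senescent MSCs. Replicate 1 was the highest library of all 4 groups, and the groups overlapped in every comparison. The log2 fold change after MmC was -0.62 without GDF11 (95% interval -2.41 to 1.16, adjusted p = 0.571) and -0.22 with GDF11 (-2.01 to 1.56, adjusted p = 0.848). Leaving out single libraries moved it from -1.43 to 0.78 and from -1.04 to 0.61, and without replicate 1 of every group it was -0.04 and -0.21.

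*PLIN2* (ENSG00000147872.10, chr9:19108375-19149290, minus strand) encodes perilipin 2, the droplet coat protein found in most cells. It was the most abundant member and had the smallest adjusted p of the 9. It had 93.5, 118, 99.2 and 99.9 CPM in MmC-/GDF11- and 245, 368, 369 and 528 in MmC+/GDF11-. With GDF11 it had 85.6, 122, 113 and 114 CPM in "young" MSCs and 247, 367, 369 and 592 in senescent MSCs. The groups did not overlap in either comparison, and replicate 1 was the lowest library of every group. *PLIN2* was 3.68-fold higher after MmC without GDF11 (log2 fold change 1.88, SE 0.242, adjusted p = 2.00e-05) and 3.62-fold higher with GDF11 (1.85, SE 0.242, adjusted p = 2.22e-05). Same-numbered pairs differed by 2.62 to 5.29 and by 2.89 to 5.18 times. Words of 31 bases shared with alternate contigs covered 6.90% of its exons, the second largest share among the members after *ADIPOQ*.

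*PLIN1* (ENSG00000166819.12, chr15:89664367-89679427, minus strand) encodes perilipin 1, the droplet coat protein of fat cells. Its counts were 8, 3, 8 and 8 in MmC-/GDF11- and 12, 13, 16 and 20 in MmC+/GDF11-, or 0.0792 ± 0.0346 and 0.170 ± 0.0461 CPM. With GDF11 the counts were 7, 1, 8 and 2 in "young" MSCs and 13, 15, 30 and 30 in senescent MSCs, or 0.0588 ± 0.0475 and 0.214 ± 0.0740 CPM. The CPM of the groups did not overlap in either comparison. The gene passed the filter on low counts only through libraries with MmC, so it could only be called higher. *PLIN1* was 3.64-fold higher after MmC with GDF11 (log2 fold change 1.86, SE 0.489, adjusted p = 0.00543). Without GDF11 the log2 fold change was 1.12 (SE 0.472, 95% interval 0.12 to 2.12, adjusted p = 0.0639), which did not pass. Same-numbered libraries counted as pairs in that comparison, and in the blocked fit it was 1.14 (adjusted p = 0.0326). It also passed without replicate 1 of MmC+/GDF11- (adjusted p = 0.0492). Whether the effect of MmC differed with GDF11 was tested directly, and the difference was 0.75 on the log2 scale (95% interval -0.72 to 2.21, unadjusted p = 0.297 in the quasi-likelihood test). Per length, *PLIN1* was far under *PLIN2*, at 0.169 ± 0.0525 against 283 ± 98.4 TPM (counts scaled by exonic length and library) in MmC+/GDF11-.

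*LEP* (ENSG00000174697.5, chr7:128241278-128257629, plus strand) encodes leptin, the hormone by which fat cells signal the size of the fat store. Its counts were 2, 0, 0 and 0 in MmC-/GDF11- and 128, 14, 6 and 9 in MmC+/GDF11-. With GDF11 they were 1, 0, 2 and 1 in "young" MSCs and 78, 16, 18 and 19 in senescent MSCs. Every library with MmC had more than any without it, and replicate 1 held most of the counts. The ratio of the group's counts, each pooled over the 4 libraries and divided by their pooled TMM-scaled sizes, was 76.9 (exact 95% interval 20.9 to 641, counting error only) without GDF11 and 24.99 (9.53 to 93.1) with it. The gene passed the test in both comparisons (adjusted p = 0.00409 and 0.00895). It had passed the filter on low counts only through libraries with MmC, so it could only be called higher. The fitted log2 fold changes, 5.87 and 4.73, depend on the small count added to groups near 0, and they were 3.99 without replicate 1 of MmC+/GDF11-, 8.24 without replicate 1 of MmC-/GDF11- and 3.53 without replicate 1 of MmC+/GDF11+. Even in replicate 1 of MmC+/GDF11-, *LEP* reached only 1.30 CPM.

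*ADIPOQ* (ENSG00000181092.10, chr3:186842704-186858463, plus strand) encodes adiponectin, an adipokine made by mature fat cells. It had no count in the 4 libraries of MmC-/GDF11-, which allows up to 3 counts in each, or between 0.0289 and 0.0393 CPM. In MmC+/GDF11- its counts were 2, 2, 1 and 1. With GDF11 it had 0, 0, 1 and 0 counts in "young" MSCs and 4, 0, 4 and 0 in senescent MSCs. By an exact two-sided permutation test of CPM, MmC+/GDF11- differed from MmC-/GDF11- with p = 0.0286, the smallest value that 70 assignments of 4 and 4 libraries allow, but 0.0166 CPM on average is under the level that a count of 0 allows. The antisense gene *ADIPOQ-AS1* overlaps 46.4% of the exons and had at most 2 counts in any library, and the strand setting of the counting was not stated. No fold is given, since 14 of the 16 libraries were under 3 counts and the other 2, both in MmC+/GDF11+, had 4.

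**Figure D2:**
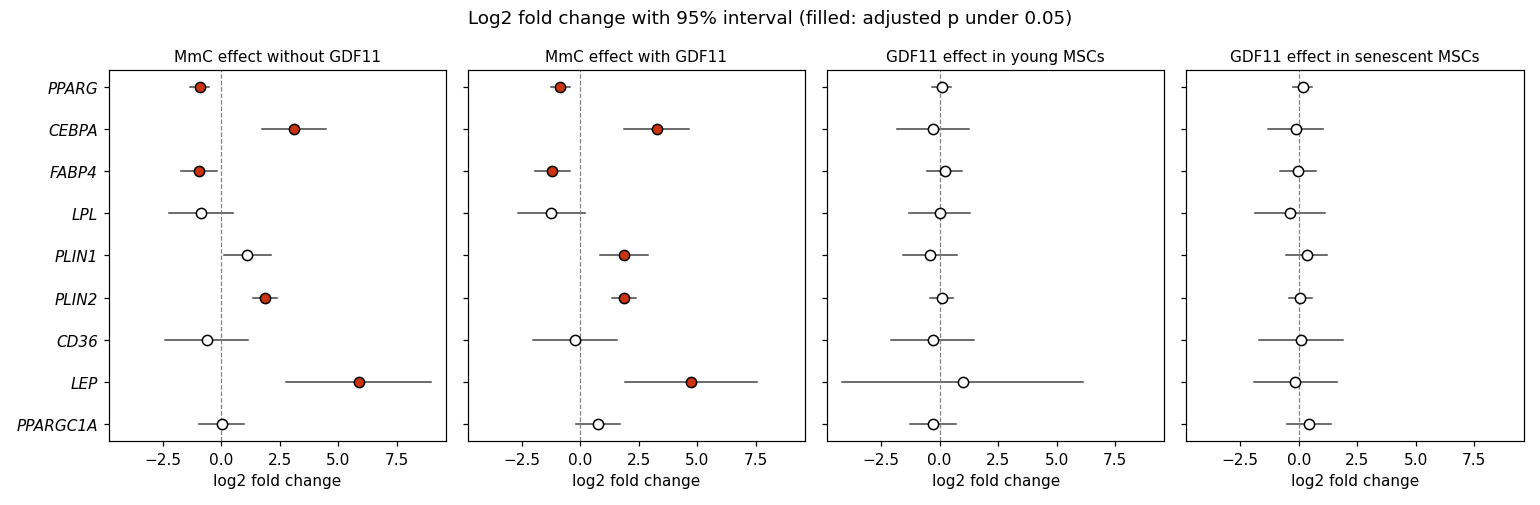
Log2 fold change (x axis) of the 9 tested members (y axis) for MmC without GDF11, MmC with GDF11, GDF11 in "young" MSCs and GDF11 in senescent MSCs, with 95% intervals as lines and filled points where the adjusted p was under 0.05. Filled points are found in the MmC panels, 5 and 6 of 9, and none in the GDF11 panels, where the intervals of *LEP* and *CD36* are the widest in "young" MSCs.

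With GDF11 as the agent compared, none of the members changed detectably. In "young" MSCs 0 of 9 passed, beside 0 % of all tested genes, where 226 genes had an unadjusted p under 0.05, DESeq2 called 1 gene and limma-voom 0. In senescent MSCs 0 of 9 passed, again beside 0 % of all genes, where 96 genes had an unadjusted p under 0.05 and neither DESeq2 nor limma-voom called any. No member had groups that did not overlap, against 0.89% of all genes in "young" and 0.503% in senescent MSCs. The lowest unadjusted p of a member was 0.460 (*PLIN1*) in "young" MSCs and 0.336 (*PPARGC1A*) in senescent MSCs. Each of these comparisons shares a group with each MmC comparison.

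The intervals show how large a GDF11 effect could have been missed in the fit without the replicate number. For *PPARG* the log2 fold change was 0.09 (95% interval -0.32 to 0.50) in "young" and 0.16 (-0.25 to 0.58) in senescent MSCs. A loss of *PPARG* of the size that MmC gave lay outside both intervals. For *PLIN2* it was 0.09 (-0.41 to 0.58) and 0.06 (-0.44 to 0.56), and an effect of the size of MmC's was likewise outside. *FABP4* had 0.22 (-0.53 to 0.96) and -0.03 (-0.80 to 0.74). The other members were bounded less tightly. *CEBPA* had -0.29 (-1.82 to 1.24) and -0.14 (-1.31 to 1.03), and *CD36* had -0.30 (-2.08 to 1.48) and 0.10 (-1.68 to 1.89). *PLIN1* had -0.42 (-1.58 to 0.75) and 0.33 (-0.56 to 1.22), *LPL* had 0.01 (-1.29 to 1.32) and -0.38 (-1.88 to 1.11), and *PPARGC1A* had -0.29 (-1.27 to 0.70) and 0.43 (-0.49 to 1.36). *LEP*, with at most 2 counts in a "young" library, had 0.99 (-4.16 to 6.14) and -0.15 (-1.93 to 1.63). These intervals therefore include the spread between replicate numbers and may be wider than same-numbered pairs would allow. For *CD36* in senescent MSCs the 4 same-numbered ratios ran from 0.833 to 1.20. Intervals from a blocked fit are not given here. By direction within replicate numbers, *PPARG* was higher with GDF11 in all 4 senescent pairs, by ratios of 1.04 to 1.32, and *PPARGC1A* was too, by 1.19 to 1.80. *PLIN1* was higher in all 4 senescent pairs, by ratios of 1.01 to 1.46. In "young" MSCs, where the numbers were not taken as pairs, it was lower in all 4 same-numbered libraries, at 0.290 to 0.975 of the level without GDF11. Its counts there were 8, 3, 8 and 8 without and 7, 1, 8 and 2 with GDF11. These directions were not tested, and the share of all genes that show them is not given here. The test of the difference between GDF11's effects in senescent and in "young" MSCs, which is also that between MmC's effects with and without GDF11, passed for 0 of 9 members and 0 % of all genes (172 genes with an unadjusted p under 0.05, none called by DESeq2 or limma-voom). The lowest unadjusted p of a member was 0.277, for *PPARGC1A*.

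Per length, the order of the members by their means changed with MmC below the first 2 places. The length is that of all annotated exons of a gene together, so the order depends on it. Of 40 ranks over the groups, 21 differed when taken by CPM without length, but those of *PLIN2* and *PPARG* did not. By CPM *CEBPA* stood at place 6 in MmC-/GDF11- and at place 4 in MmC+/GDF11-. In MmC-/GDF11- *PLIN2* led with 78.3 ± 4.49 TPM, followed by *PPARG* with 8.36 ± 1.32, *FABP4* with 4.38 ± 1.40 and *CD36* with 2.91 ± 3.65. Each of *PLIN2* and *PPARG* stood apart from the next gene by mean in every library, while *FABP4* and *CD36* overlapped. *PPARG* did overlap with *CD36*, which stood above it in replicate 1, at 8.36 against 6.47 TPM. The same was seen in replicate 1 of MmC+/GDF11-, at 3.99 against 3.67 TPM. *CEBPA* (0.281 ± 0.281 TPM), *LPL* (0.158 ± 0.0805) and *PLIN1* (0.0815 ± 0.0371) each overlapped with the next. *PPARGC1A* (0.0721 ± 0.0287 TPM) overlapped with *PLIN1* and stood above *LEP* in every library, and *LEP* and *ADIPOQ* were lowest. In MmC+/GDF11- *PLIN2* had 283 ± 98.4 TPM and *PPARG* 4.30 ± 1.45. *CEBPA* had 2.30 ± 1.09 TPM there and moved from the fifth place to the third by its mean, but it overlapped with *FABP4* (2.22 ± 0.973) and *FABP4* with *CD36* (1.79 ± 1.50). *LEP* stood ninth by its mean without MmC and sixth with it, where it overlapped with *PLIN1* and its mean rested on replicate 1, at 1.36 TPM against 0.0726 to 0.174 in the others.

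Replicate 1 stood at one end of its group for many of the members. It was the highest library for *CD36* in 4 of 4 groups and for *LEP* in 3 of 4. It was the lowest in 4 of 4 groups for *FABP4*, *PLIN2* and *PPARGC1A* and in 3 of 4 for *PPARG* and *LPL*. Replicate 4 was the highest in 4 of 4 groups for *LPL* and *PPARGC1A*. Without replicate 1 in any group, 6 of the 9 members passed for MmC without GDF11 and 8 of 9 with it. In that fit 10004 and 10164 of the 19338 tested genes passed, and the members were not tested as a set. *PLIN1* (adjusted p = 0.0382) joined in the comparison without GDF11, and *LPL* (log2 fold change -1.41, adjusted p = 0.0210) and *PPARGC1A* (0.81, adjusted p = 0.0394) joined in that with GDF11. Given the filter on low counts, *PLIN1* could only be called higher and *LPL* only lower. *CEBPA* had log2 fold changes of 4.35 and 3.84 in that fit. What the number stands for was not given in the sources used here. The paper names batch effects from technical problems among its limitations, but it does not say which libraries they concern. Whether replicate 1 is such a batch was not tested.

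The genes whose centred log2 CPM ran closest to that of *PPARG* over the 16 libraries were *CLIC2* and *EPS8*, with root mean square differences of 0.144 and 0.154 on the log2 scale. For *PLIN2* they were *RND3* (0.215) and *DGAT2* (0.224). *DGAT2*, which makes the last step of triglyceride synthesis, is also on the list of lipid synthesis genes below.

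Other genes of fat cell biology were counted in 6 lists that hold no member. Their counts stand beside 22.9% higher and 22.4% lower of all tested genes for MmC without GDF11 and 23.4% and 23.3% with it, and the lists were not tested as sets. Among 18 early regulators and co-regulators, all tested, MmC without GDF11 gave 2 higher and 3 lower (median log2 fold change 0.02), and with GDF11 4 higher and 2 lower. In the blocked fit without GDF11, 4 were higher and 4 lower, beside 5506 higher and 5560 lower of all 19103 genes in that fit. *PPARD*, the ubiquitous relative of *PPARG*, rose from 55.6 ± 7.00 to 121 ± 32.9 CPM without GDF11 (log2 fold change 1.12, adjusted p = 0.000325). *SREBF1*, a regulator of lipid synthesis, fell from 544 ± 125 to 253 ± 75.8 CPM (-1.10, adjusted p = 0.00641). *CEBPD*, the early C/EBP, was higher by 0.43 (adjusted p = 0.0293) and by 0.70 with GDF11. Its first call was lost without replicate 2, 3 or 4 of MmC-/GDF11- or replicate 2 of MmC+/GDF11- (adjusted p between 0.0772 and 0.0837). The other calls were lower *EBF1* (-0.37) without GDF11, higher *CEBPB* (0.71) and *KLF4* (0.29) with it, and lower *RXRA* (-0.43) in both. These and the further genes given below as other calls were named after their values were seen. Of 14 inhibitors of adipogenesis, 11 were tested, and 3 were higher and 4 lower in both comparisons (median 0.05 without GDF11). *KLF2* fell from 31.5 ± 10.5 to 7.13 ± 3.12 CPM (-2.14, adjusted p = 0.000459) and *GATA2* from 21.1 ± 1.61 to 8.33 ± 0.531 (-1.34, adjusted p = 1.37e-07), both transcription factors that hold back PPARγ. *DDIT3*, a stress-induced C/EBP that blocks the other C/EBPs, rose from 21.4 ± 5.40 to 63.2 ± 26.2 CPM (1.56, adjusted p = 0.00140). The other calls were lower *NR2F2* (-1.34) and *WNT10B* (-0.65) and higher *SIRT1* (0.47) and *ZFP36L1* (0.66), with the same directions with GDF11.

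Of 15 genes of the lipid droplet and lipolysis, 13 were tested. MmC without GDF11 gave 4 higher and 3 lower (median 0.34), and with GDF11 5 higher and 3 lower. *G0S2*, an inhibitor of the lipase ATGL, rose from 4.94 ± 0.968 to 30.9 ± 14.5 CPM (log2 fold change 2.65, adjusted p = 8.50e-05), and *PNPLA2*, which encodes ATGL itself, from 134 ± 14.0 to 221 ± 34.2 (0.72, adjusted p = 0.000133). *PLIN3*, another ubiquitous perilipin, fell from 584 ± 92.6 to 325 ± 48.5 CPM (-0.85, adjusted p = 0.000320), so perilipins 2 and 3 moved in opposite directions. *PLIN4* was also higher (2.07) and *ABHD5*, the activator of ATGL, too (0.65), while *LIPE*, which encodes hormone-sensitive lipase, fell by 1.00 and *CIDEB* by 0.93. With GDF11 *MGLL* (0.28) joined the higher genes. Of 20 genes of fatty acid uptake and triglyceride synthesis, 18 were tested, with 6 higher and 2 lower in both comparisons (median 0.03 without GDF11 and -0.02 with it). The 2 lower genes were *LPIN1* (-0.74) and *SLC27A4* (-0.48). In the blocked fit without GDF11, 8 were higher and 5 lower, beside 5506 higher and 5560 lower of all 19103 genes in that fit. *DGAT2* rose from 6.24 ± 0.950 to 22.1 ± 4.59 CPM (1.82, adjusted p = 8.62e-07). *ANGPTL4*, a secreted inhibitor of lipoprotein lipase and a target of PPARs, rose from 19.9 ± 6.26 to 72.4 ± 17.5 CPM (1.86, adjusted p = 5.28e-05). *VLDLR*, a receptor for triglyceride-rich lipoproteins, was higher by 1.49 (adjusted p = 0.000342) and by 0.99 with GDF11 (adjusted p = 0.00617).

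**Figure D3:**
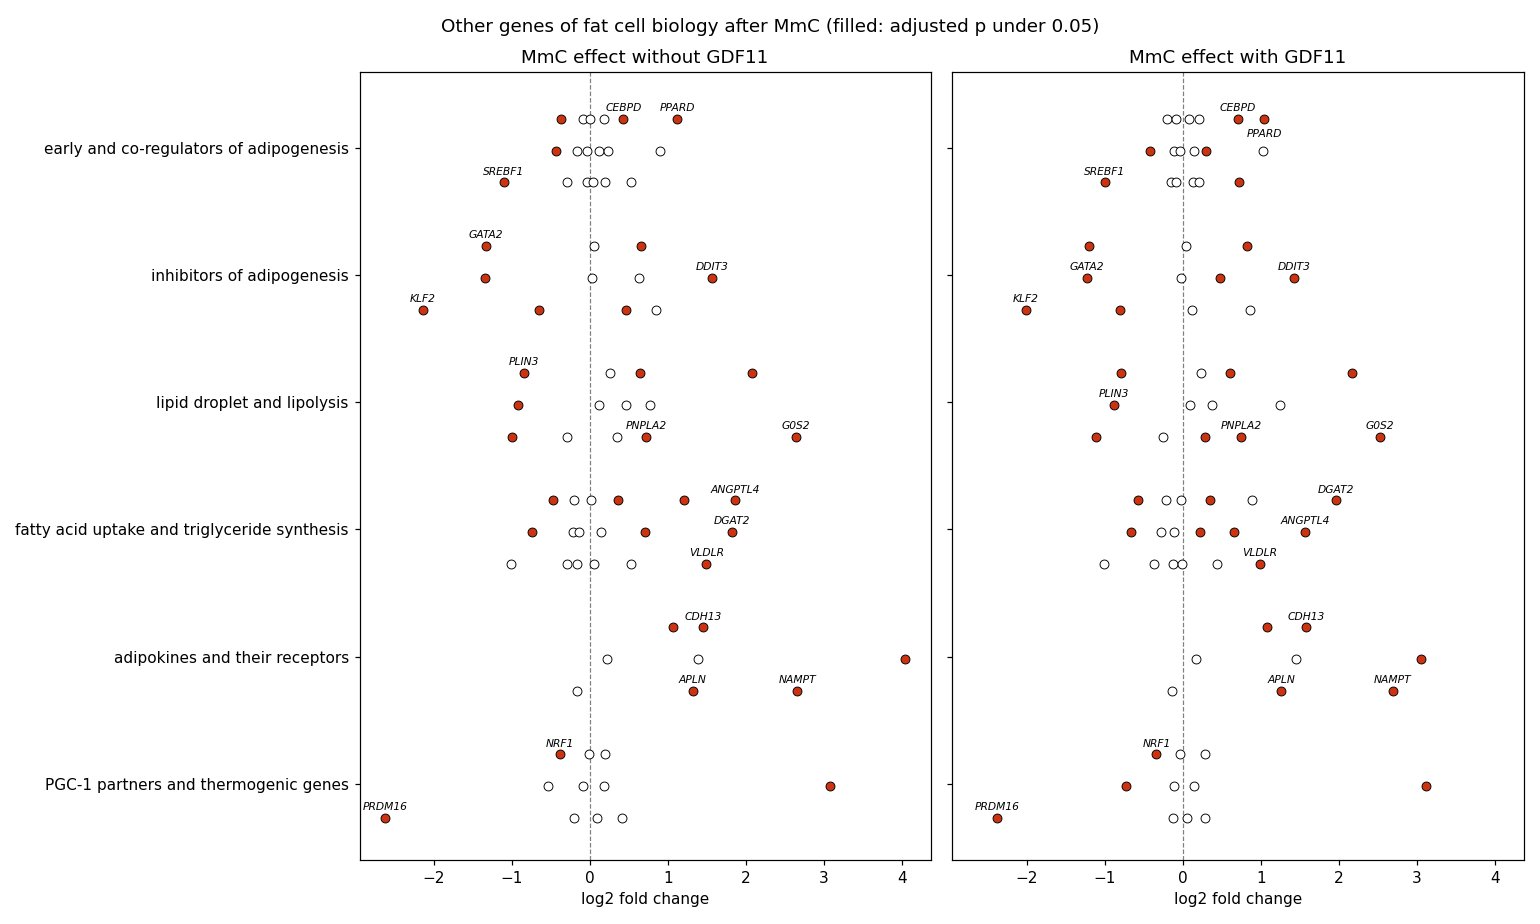
Log2 fold change after MmC (x axis) of every tested gene of the 6 lists (y axis, with points staggered by height for legibility) without GDF11 on the left and with GDF11 on the right, filled where the adjusted p was under 0.05 and labelled for the named genes. The adipokine list has 5 filled points, all above 0, in both panels, while the other lists have filled points on either side of 0. Of all genes 22.9% were higher and 22.4% lower on the left, and 23.4% and 23.3% on the right.

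Of 12 adipokines and their receptors, 8 were tested, and 5 were higher and 0 lower in both comparisons, with a median log2 fold change of 1.35 without GDF11. Of all tested genes 22.9% were higher and 22.4% lower without GDF11, and 23.4% and 23.3% with it. *NAMPT*, which encodes an enzyme of NAD synthesis that is also secreted, rose from 101 ± 6.74 to 640 ± 228 CPM (2.66, adjusted p = 9.29e-06). *CDH13*, which encodes the adiponectin-binding T-cadherin, was higher by 1.46 (adjusted p = 3.59e-05) and *APLN*, which encodes the peptide apelin, by 1.32 (adjusted p = 0.000623). The other 2 were *ADIPOR1*, an adiponectin receptor, with a log2 fold change of 1.07, and *RBP4*, a retinol carrier, which had 0.00584 ± 0.00683 CPM without and 0.115 ± 0.0303 CPM with MmC. *RBP4* passed the filter on low counts only through libraries with MmC, so it could only be called higher. *NAMPT*, *CDH13* and *APLN* are expressed in many cell types besides fat cells. Of 14 PGC-1 partners and thermogenic genes, 11 were tested, with 1 higher and 2 lower without GDF11 and 1 higher and 3 lower with it (median -0.02 without GDF11). *PRDM16*, a regulator of brown and beige fat, fell from 7.49 ± 0.749 to 1.22 ± 0.407 CPM (-2.62, adjusted p = 3.99e-06). *NRF1*, a regulator of mitochondrial genes, fell by 0.38 (adjusted p = 0.0104, and 0.0506 with only the libraries compared), and by 0.34 with GDF11 (adjusted p = 0.0202), a call lost on omitting the filter on low counts (0.0670), replicate 2 of MmC-/GDF11+ (0.0750) or the first library of MmC+/GDF11+ (0.0581). The 1 higher gene was *DIO2*, a deiodinase of thyroid hormone (3.07), and the further lower gene with GDF11 was *UCP2* (-0.73). With GDF11 as the agent compared, 0 genes of the 6 lists passed in either "young" or senescent MSCs.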

How the data were processed

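Poly(A) RNA of ASC52telo MSCs was sequenced in 16 libraries, and groups and replicate numbers came from the sample labels. The authors used HISAT2 2.2.1 for alignment (hg38), used SAMtools for sorting, assigned reads to GENCODE 38 genes with featureCounts 2.0.1 and deposited raw counts, without normalization. The strand setting, the counting of pairs and of reads with several alignments, and a test were not given in the sources used here.

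The fit was made with edgeR 4.0.16 (R 4.3.3). Genes passed filterByExpr (minimum count 10, minimum total 15), scaled by TMM and fitted by the robust quasi-likelihood method with 1 mean per group over all 16 libraries, with Benjamini-Hochberg adjustment over 19103 genes at 0.05. Standard errors were derived from the fold change and its F statistic. CPM used TMM-scaled library sizes, and TPM used exonic lengths of GENCODE 44 (186 identifiers had no match). A gene under the filter was tested by an exact permutation test where 4 of 8 libraries had a count. Intervals of fold changes were built from the standard errors of the fit and so include the spread between libraries. Exact intervals of ratios of pooled counts, and floors (3 counts), cover counting error only. The steps were tested on simulated data, with changes planted only in genes above 1 CPM and no effect of the replicate number. That test says nothing of members under 1 CPM or of differences between replicate numbers.

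The members and lists were chosen with earlier results of these data known. Named genes are the members, up to 3 per list with the largest mean absolute log2 fold change among those called in both MmC comparisons whose mean log2 CPM was 1 or more, and the 2 protein-coding genes most like each member of that level called in both. Same-numbered libraries deviated together from their group means with a lowest correlation of 0.113 (MmC, GDF11 absent) and 0.448 (GDF11, senescent), and the numbers were taken to pair these libraries. The fit behind the printed values has no term for the number, and blocked values are given where they change a call. The lowest value was 0.0293 (MmC, GDF11 present) and 0.0982 (GDF11, "young"), and those were not. This split rests on the lowest correlation alone, and 0.113 and 0.0982 lie close together. The highest was 0.37 (MmC, GDF11 absent) and 0.50 (GDF11, "young"). The labels do not say whether the numbers pair libraries, so the split is a choice, and the blocked calls of *PLIN1*, *LPL* and *PPARGC1A* are all given. Alternatives were upper-quartile or RLE scaling, a filter of 10 counts in every library or none, a fit to the compared groups alone, the replicate number as a block, limma-voom (limma 3.58.1), DESeq2 1.42.0, each library left out, and replicate 1 left out of all groups. Promoters were RefSeq's, and reads were not analysed here.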

Additional observations from a re-analysis of the deposited data

Results flagged for a closer look

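In 39 groups of 4 libraries of a member, 7 had a library whose gap to the nearest of the others passed Dixon's 95% critical value. Chance gives about 1 in 20 groups, or 1.95 of 39, but this does not apply to 2 of the 7, in which 3 of the libraries were at 0 and any count passes. *CD36* had 23.5 CPM in replicate 1 of MmC-/GDF11- against 1.78 to 3.96 in the other libraries. *LEP* had 1.30 CPM in replicate 1 of MmC+/GDF11- against 0.0670 to 0.163, and 1.07 CPM in replicate 1 of MmC+/GDF11+ against 0.123 to 0.203. *LEP* also had 0.0260 CPM in replicate 1 of MmC-/GDF11-, where the others had 0. *FABP4* had 0.356 CPM in replicate 1 of MmC+/GDF11+ against 0.896 to 0.997. *PPARG* had 21.6 CPM in replicate 4 of MmC+/GDF11+ against 12.7 to 14.1. *ADIPOQ* had 0.0128 CPM in replicate 3 of MmC-/GDF11+, a single count, where the others had 0.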

How the results depend on the processing

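*PPARG*, *CEBPA*, *PLIN2* and *LEP* kept their direction and their call for MmC in every alternative that gave an adjusted p, without and with GDF11, and no called member changed sign. DESeq2 gave *LEP* no adjusted p in either comparison and called 4 members without GDF11 and 5 with it, beside 8951 and 9243 of 19103 genes. With 10 counts in every library only 4 members were tested, of which 2 passed for MmC without GDF11 and 3 with it. With only the libraries compared, 7 members were tested and 3 passed for MmC without GDF11, since *LEP* and *PLIN1* fell under the filter and *FABP4* had an adjusted p of 0.0594. *FABP4* also lost that call with no filter (0.0589) and with 10 counts in every library (0.0509). For the fits with 10 counts in every library and with only the libraries compared, the share of all genes called is not given here. DESeq2 called 1 gene of all for GDF11 in "young" MSCs, where the cause was not tested. Leaving out each library gave 7602 to 8793 genes and 4 to 5 members for MmC without GDF11, 7742 to 9030 genes and 6 to 7 members for MmC with GDF11, and 0 to 1 genes and 0 members for GDF11 in "young" MSCs, the 1 without replicate 2 of MmC-/GDF11+. It gave 0 genes and 0 members for GDF11 in senescent MSCs and for the interaction. The replicate block gave 11066 genes and 6 members for MmC without GDF11 and 0 genes for GDF11 in senescent MSCs. For MmC with GDF11, where the numbers were not taken as pairs, the block gave 11267 genes and 8 members, *LPL* (log2 fold change -1.30, adjusted p = 0.0109) and *PPARGC1A* (0.74, adjusted p = 0.0284) among them. For MmC without GDF11 it added *PLIN1*. It changed no other call of a member. Given the filter on low counts, *LPL* could only be called lower. Low counts limit *LPL*, *PLIN1*, *LEP*, *ADIPOQ* and *PPARGC1A*, which had under 1 CPM in nearly every library.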
